A study of Mus musculus with 2 samples.

Results

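The intronic peaks of short genes are accessible regions of the mouse cortex that lie inside protein-coding genes shorter than 100 kb. They were taken from the 50856 peaks found in both DNase-seq libraries. A peak was a member when its midpoint lay in no exon, more than 1 kb from every annotated transcription start site, and inside protein-coding genes that were all under 100 kb. There were 4527 such peaks, 8.90% of the shared peaks (95% Wilson interval 8.66 to 9.15). They are set here mainly against the 8352 shared peaks that met the same conditions in genes of 100 kb and more. The choice of members used position and the presence of a peak in both libraries, and not the strength of the signal, the sequence or the footprints.

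The cortex of the left cerebral hemisphere was taken from 2 females at an age of 10 days, and each animal gave 1 library. The strain, B6CASTF1/J, is an F1 hybrid between C57BL/6J and the wild-derived CAST/EiJ. The labels number the animals separately, but both libraries carried the same donor identifier. The libraries are replicates 1 and 2 of a single group with no treatment, so the comparisons are between kinds of region, with the replicates as the measure of error. An exact sign-flip test over 2 libraries cannot give a two-sided p below 0.5. For that reason values are given without a test, and for each library where they were computed. Intervals cover counting error only and treat peaks as independent.

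DNase I cuts DNA that is not packed into closed chromatin, and clusters of cuts mark promoters, enhancers, insulators and other regions occupied by regulatory proteins. Introns hold many enhancers, which can act on the host gene or on another gene nearby. CTCF is a zinc-finger protein that binds a long, well-defined sequence, stops loop extrusion by cohesin and so helps to set the borders of chromatin domains. Where a protein covers its site, DNase I cuts less, and such a protected stretch inside a peak is called a footprint.

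The first set of sequences shows 4 members with the CTCF consensus, which of the 25 motifs searched differed by the most percentage points between short and long genes. Each is printed 5′ to 3′ on the + strand of mm10 (RefSeq GRCm38.p6), with the CTCF match in capitals. Nuak1, an AMPK-related kinase that promotes axon branching, held the strongest such member. Gad1 makes the inhibitory transmitter GABA, Stmn2 encodes a tubulin-binding protein of growing neurites, and Acot7, a brain acyl-CoA thioesterase, held more members than any other gene except Il3ra.
Nuak1 (chr10:84438121-84438320): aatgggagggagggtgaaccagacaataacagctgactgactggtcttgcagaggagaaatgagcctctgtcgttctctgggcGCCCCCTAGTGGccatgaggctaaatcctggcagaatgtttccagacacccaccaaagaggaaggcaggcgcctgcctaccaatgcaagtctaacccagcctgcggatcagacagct
Gad1 (chr2:70558241-70558420): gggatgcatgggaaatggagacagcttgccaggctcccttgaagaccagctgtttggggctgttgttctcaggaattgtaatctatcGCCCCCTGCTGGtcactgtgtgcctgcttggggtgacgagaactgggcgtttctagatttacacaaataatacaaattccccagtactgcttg
Acot7 (chr4:152214161-152214380): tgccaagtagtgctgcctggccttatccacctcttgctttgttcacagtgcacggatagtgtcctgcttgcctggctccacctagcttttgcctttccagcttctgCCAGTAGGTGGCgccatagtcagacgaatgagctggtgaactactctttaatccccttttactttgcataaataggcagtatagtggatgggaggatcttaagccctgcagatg
Stmn2 (chr3:8513761-8513920): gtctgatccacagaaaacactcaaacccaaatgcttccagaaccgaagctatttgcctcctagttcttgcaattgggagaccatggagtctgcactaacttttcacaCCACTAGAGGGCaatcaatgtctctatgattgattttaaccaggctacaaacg

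The second set shows 2 strong GC-rich members from genes of transcription factors. In Creb3l1, which encodes a membrane-bound factor of the endoplasmic reticulum, the capitals mark matches to the SP and KLF box GGGCGGG, both on the - strand. In Mxi1, which encodes a partner of MAX that opposes MYC, they mark the palindromic cyclic AMP response element TGACGTCA, bound by CREB.
Creb3l1 (chr2:92008361-92008580): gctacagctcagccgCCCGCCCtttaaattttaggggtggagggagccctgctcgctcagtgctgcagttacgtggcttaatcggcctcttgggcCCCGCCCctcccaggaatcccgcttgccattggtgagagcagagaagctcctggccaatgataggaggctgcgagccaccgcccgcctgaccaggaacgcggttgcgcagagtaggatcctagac
Mxi1 (chr19:53314221-53314440): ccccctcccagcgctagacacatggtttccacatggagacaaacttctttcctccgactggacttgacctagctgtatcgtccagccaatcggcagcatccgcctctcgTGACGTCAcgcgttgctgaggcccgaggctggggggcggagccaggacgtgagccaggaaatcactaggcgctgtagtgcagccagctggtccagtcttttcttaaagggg

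The third set shows sequences that were less frequent in the intronic peaks of short genes than in those of long genes. The capitals mark the short nuclear factor I (NFI) site TTGGCA on the - strand in Hlf, a gene of a PAR-domain transcription factor. They mark the neural E-box CAGATG, bound by proneural basic helix-loop-helix factors, on the - strand in the astrocyte glutamate transporter gene Slc1a3. In Cdhr3, a cadherin-related gene, they mark a match to the MEF2 consensus, a palindromic pattern that matches on both strands.
Hlf (chr11:90369701-90369900): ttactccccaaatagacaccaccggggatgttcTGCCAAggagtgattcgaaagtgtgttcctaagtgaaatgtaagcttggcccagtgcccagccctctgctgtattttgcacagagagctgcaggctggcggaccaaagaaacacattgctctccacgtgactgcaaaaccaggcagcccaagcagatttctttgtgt
Slc1a3 (chr15:8663841-8664080): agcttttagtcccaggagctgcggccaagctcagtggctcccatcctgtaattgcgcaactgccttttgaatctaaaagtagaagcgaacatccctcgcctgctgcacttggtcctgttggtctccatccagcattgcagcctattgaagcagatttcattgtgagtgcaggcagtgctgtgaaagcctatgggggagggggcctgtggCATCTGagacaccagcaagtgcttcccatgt
Cdhr3 (chr12:33035761-33035980): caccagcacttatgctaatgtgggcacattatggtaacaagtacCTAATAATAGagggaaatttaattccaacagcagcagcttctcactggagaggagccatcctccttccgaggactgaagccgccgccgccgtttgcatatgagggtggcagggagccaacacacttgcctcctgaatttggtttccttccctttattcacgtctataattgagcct

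The deposited lists held 60071 peaks in replicate 1 and 70563 in replicate 2. Signal is the authors' value of each peak, in units that the sources used here do not define. All values were whole multiples of a step, which was 0.00692 for replicate 1 and 0.00758 for replicate 2, within a tolerance of 0.01 step. The depth was not stated. The median member held 130 steps in replicate 1, and if a step is 1 cut its counting error was 8.77%. In replicate 2 it held 148 steps, with an error of 8.22%.

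The introns of short genes were about as rich in accessible regions as those of long genes. Members numbered 15.4 per Mb of sequence that met the conditions (exact Poisson interval 14.9 to 15.8, in 294.8 Mb), against 14.6 per Mb in long genes (14.3 to 14.9, in 573.3 Mb), a ratio of 1.05 (95% interval from the counting errors 1.02 to 1.09). Between genes there were 11.2 shared peaks per Mb. In the complete list of replicate 1, which adds peaks absent from the other library, the densities were 18.4 per Mb in short genes and 17.8 per Mb in long genes. In the complete list of replicate 2 they were 22.4 and 21.7 per Mb, and both ratios came to 1.03. The density in short genes differed between the libraries (SD 2.83 per Mb, n = 2), and that in long genes moved with it.

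The peaks of short genes were stronger than those of long genes. Their median signal was 0.899 in replicate 1 and 1.12 in replicate 2, against 0.782 in replicate 1 and 0.940 in replicate 2 for the intronic peaks of long genes. Signal ran from 0.152 to 14.5 among the members in replicate 1 and from 0.212 to 11.6 in replicate 2. The middle 50% of members lay between 0.671 and 1.22 in replicate 1 and between 0.803 and 1.63 in replicate 2. Peaks within 1 kb of a start site were stronger than either kind, with medians of 1.44 and 2.05. Over all shared peaks the medians were 0.927 and 1.20, above those of the members, and in exonic peaks 0.872 and 1.11. The median signal was highest in genes under 10 kb, at 1.08 in replicate 1 and 1.31 in replicate 2, and lowest in genes of 500 kb and more, at 0.726 and 0.857.

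The near-equal density covered a gradient with signal. When all intronic shared peaks were divided into 4 equal classes by their mean signal, peaks of the weakest class numbered 2.82 per Mb in short genes and 4.17 per Mb in long genes, a ratio of 0.675 (0.624 to 0.731). In the next class the ratio was 0.907 (0.842 to 0.977), and in the class above it 1.19 (1.11 to 1.27). In the strongest class there were 4.93 peaks per Mb in short genes and 3.08 per Mb in long genes, a ratio of 1.60 (1.49 to 1.71). That class held 32.1% of the short-gene peaks and 21.2% of the long-gene peaks. With classes formed from the complete list of each library, the ratio in the weakest class was 0.712 in replicate 1 and 0.688 in replicate 2, and in the strongest class 1.51 and 1.54.

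**Figure D1:**
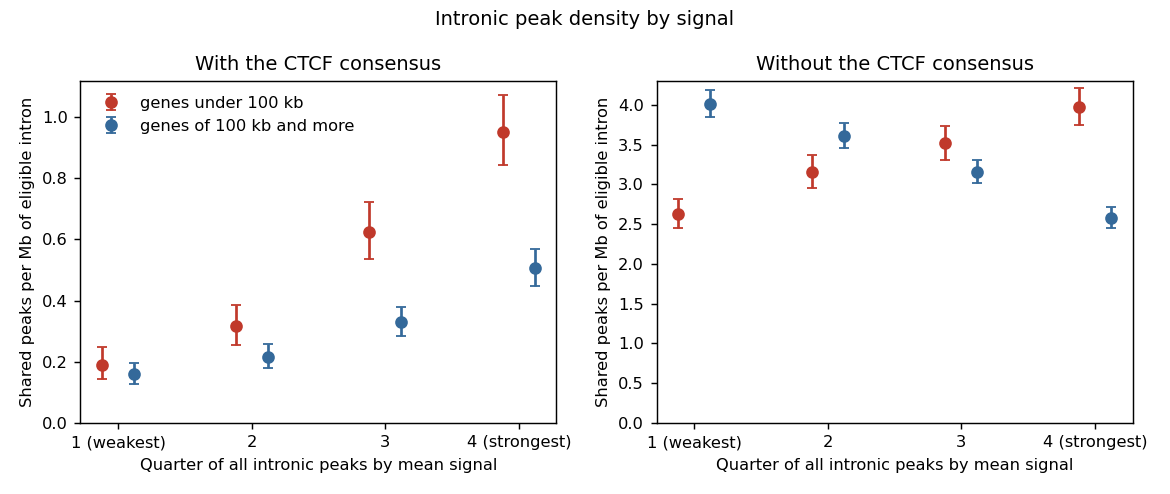
Shared intronic peaks per Mb of eligible intron (y axis) in 4 equal classes of mean signal over all intronic peaks (x axis), for genes under 100 kb and genes of 100 kb and more, with exact Poisson 95% intervals. Peaks with the CTCF consensus (left panel) were denser in short genes in every class, with an interval of the ratio that included 1 in the weakest (0.858 to 1.67), while peaks without it (right panel) were sparser in short genes in the weakest class, at 2.63 against 4.01 per Mb, and denser in the strongest, at 3.98 against 2.58 per Mb.

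Accessible regions with the CTCF consensus were denser in the introns of short genes than in those of long genes. The consensus was present in the central 200 bp of 614 members, or 13.6% (12.6 to 14.6), against 694 of the long-gene peaks, or 8.31% (7.74 to 8.92). Among all shared peaks the share was 7.68%, among those between genes 11.3%, in exons 11.8%, in noncoding genes 9.13%, and near start sites 2.49%. Counted per Mb, peaks with the consensus reached 2.08 in short genes and 1.21 in long genes, a ratio of 1.72 (1.54 to 1.92). They were denser still in exons, at 2.30 per Mb, and near start sites, at 2.93 per Mb. Peaks without it reached 13.3 per Mb in short genes and 13.4 per Mb in long genes, a ratio of 0.994 (0.956 to 1.03). In the complete lists the ratio with the consensus was 1.76 in replicate 1 and 1.75 in replicate 2, and without it 0.975 and 0.983. The near-unity of the last ratio held over all signals and not within a class: among the stronger 50% of the peaks of each library it was 1.34, while the ratio with the consensus was 1.90.

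The density of CTCF peaks was highest in genes of 10 to 50 kb and lower in each longer class. With the consensus, the density was 1.82 per Mb in genes under 10 kb (1.11 to 2.81, from 20 peaks), 2.35 from 10 to 25 kb, 2.28 from 25 to 50 kb and 1.87 from 50 to 100 kb. In longer genes it was 1.65 per Mb from 100 to 200 kb, 1.19 from 200 to 500 kb and 0.829 in genes of 500 kb and more. Without the consensus, the density lay between 12.3 and 14.2 per Mb over the 4 classes of short genes, at 14.8 from 100 to 200 kb, and at 10.9 in genes of 500 kb and more. Genes under 10 kb have wide intervals on both counts.

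**Figure D2:**
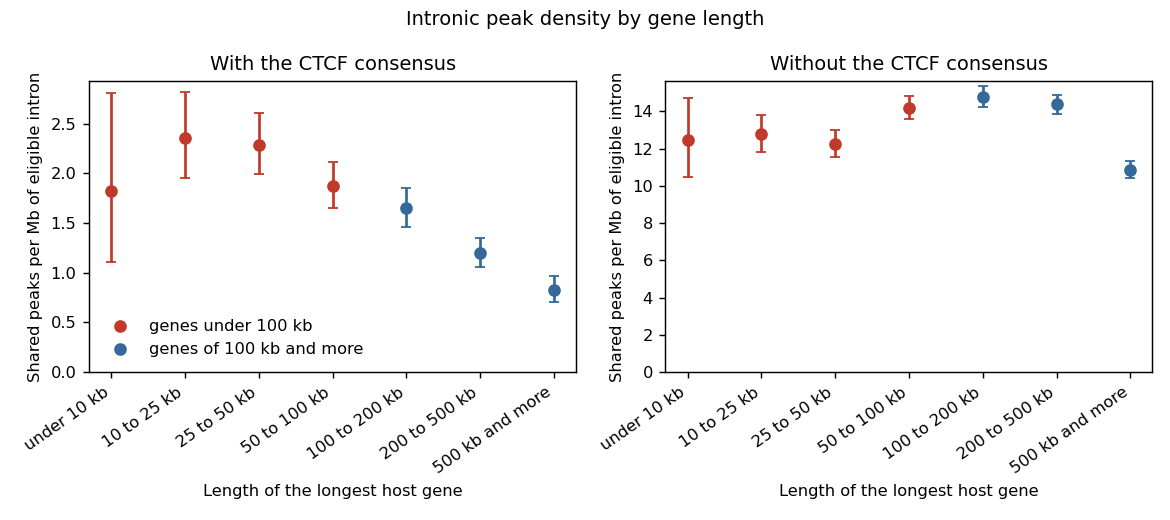
Shared intronic peaks per Mb of eligible intron (y axis) by the length of the longest host gene (x axis), with exact Poisson 95% intervals, for peaks with the CTCF consensus (left) and without it (right). With the consensus the density is 2.35 per Mb in genes of 10 to 25 kb and 0.829 per Mb in genes of 500 kb and more; without it the values of the first 6 length classes lie between 12.3 and 14.8 per Mb.

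The CTCF share was higher in short genes at every distance from the nearest start site that was compared, in 6 of 6 distance classes for the shared peaks and for each library's complete list. From 1 to 2 kb it was 11.4% in short genes and 8.04% in long genes, from 5 to 10 kb 14.5% and 9.82%, and from 10 to 20 kb 13.9% and 10.3%. The intervals overlapped from 1 to 2 kb, from 10 to 20 kb and beyond 50 kb, where there were 42 members. It was also higher in 6 of 6 classes of GC content, for example 16.5% in short genes and 8.58% in long genes at a GC content over 40% and up to 45%, with overlapping intervals in the lowest and the highest class. In first introns the share was 8.33% in short genes and 4.79% in long genes, and in later introns 15.6% and 9.35%. Within the strongest of the 4 signal classes it was 19.3% (17.4 to 21.4) in short genes and 16.4% (14.8 to 18.2) in long genes, where the intervals overlapped. In the weakest class it was 6.75% (5.23 to 8.66) and 3.81% (3.11 to 4.65).

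The contrast was also present in the sequence itself. The eligible introns of short genes held 2079 matches to the CTCF consensus, open or not, which is 7.05 per Mb, against 2528 matches or 4.41 per Mb in long genes, 1.60 times as many. A match lay in a shared peak in 29.6% of cases in short genes (27.7 to 31.6) and in 27.5% in long genes (25.8 to 29.3), intervals that overlap. Of the 615 matches of short genes in shared peaks, 96.4% overlapped a footprint by at least 1 bp in replicate 1 and 93.5% in replicate 2. In 91.9% the match overlapped a footprint of each library. By strand, 292 of the 603 such matches inside 1 short gene only pointed the way of transcription, or 48.4% (44.5 to 52.4, an interval that includes 50%). Members with the consensus had a median signal of 1.09 in replicate 1 and 1.39 in replicate 2, and members without it 0.872 and 1.08. A match is a description of the letters, and binding by CTCF was not measured.

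Promoter-like sequence was the other feature more frequent in the peaks of short genes than in those of long genes. The SP and KLF box GGGCGGG was found in 220 members, or 4.86% (4.27 to 5.53), against 2.59% of the long-gene peaks (2.27 to 2.95). Of the peaks between genes 3.79% had it, of those near start sites 33.5%, and of all shared peaks 14.8%. Its share was 10.2% in genes under 10 kb and 2.00% in genes of 500 kb and more. Near the start sites, from 1 to 2 kb, it was 9.57% in short genes and 5.49% in long genes, and from 20 to 50 kb 2.36% and 2.40%. CpG-rich members, with GC over 50% and an observed over expected CpG ratio over 0.6, made up 5.04% of short-gene peaks and 2.49% of long-gene peaks. They were stronger than the other members, with median signals of 1.13 in replicate 1 and 1.60 in replicate 2, against 0.892 and 1.11. A RefSeq start site lay within 1 kb of 230 members, or 5.08%, and of 3.07% of the long-gene peaks, and their part in these shares was not tested. The response element TGACGTCA was in 29 members, or 0.641% (0.446 to 0.918), and in 0.383% of long-gene peaks (0.272 to 0.540), intervals that overlap.

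Some motifs of neural and homeodomain factors were less frequent in the peaks of short genes than in those of long genes. The short NFI site TTGGCA was found in 20.6% of members (19.5 to 21.8) and in 24.6% of long-gene peaks (23.7 to 25.5). The full NFI palindrome was in only 6 members and 11 long-gene peaks, or 0.133% and 0.132%, with overlapping intervals. The E-box CAGATG was found in 23.3% (22.1 to 24.6) and 27.3% (26.3 to 28.2). The homeodomain core TAATTA was found in 3.51% and 4.79%, the MEF2 consensus in 2.58% and 3.64%, and the POU octamer ATGCAAAT in 1.24% and 2.08%. Over all shared peaks, which include those near start sites, most of these shares were below those of members. They were 17.7% for TTGGCA, 19.4% for CAGATG, 3.20% for TAATTA and 2.39% for MEF2. For the POU octamer the share over all shared peaks was 1.61%, above that of members. Motif by motif, 18 of the 25 sequences searched occurred in at least 50 intronic peaks. Of these, 2 were more frequent in short genes with intervals apart, CTCF and SP/KLF, 5 were less frequent, and 11 had overlapping intervals. This tally rests on counting error over the shared peaks. Only the CTCF share of peaks was also taken from the complete list of each library. Among the 11 were the AP-1 site TGACTCA, bound by Fos and Jun, at 4.73% and 4.98%, the E-box CAGCTG at 19.2% and 20.1%, and the RFX motif at 0.685% and 0.575%. The SOX motif, at 1.97% and 2.00%, and the T-box motif, at 0.685% and 0.682%, were also among them. All motifs were searched on both strands, and matches to different motifs may overlap.

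**Figure D3:**
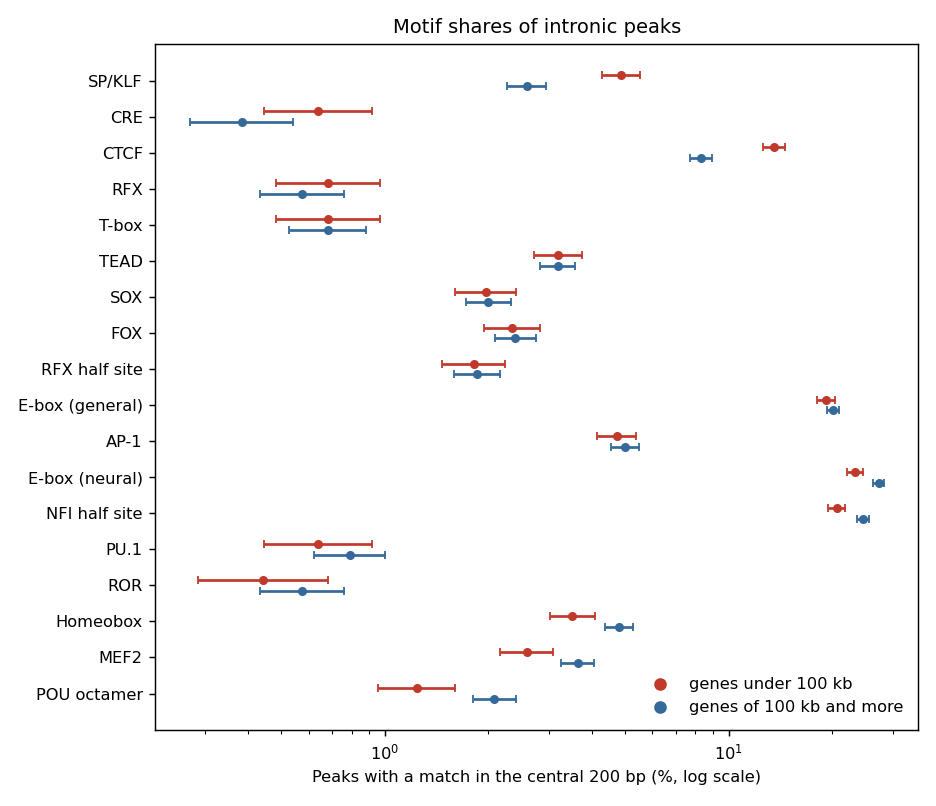
Share of peaks with a match in the central 200 bp (x axis, percent, log scale) for the 18 motifs found in at least 50 intronic peaks, with 95% Wilson intervals, for genes under 100 kb and genes of 100 kb and more. The neural E-box is CAGATG and the general one CAGCTG; motifs run from the highest ratio of short to long genes, SP/KLF at 4.86% and 2.59%, to the lowest, the POU octamer at 1.24% and 2.08%.

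Some motifs differed in the number of copies in the sequence, and some in the share of copies that were open. Matches to TTGGCA numbered 506 per Mb of eligible intron in short genes and 544 per Mb in long genes, and 0.684% (0.644 to 0.728) and 0.744% (0.714 to 0.775) of them lay in shared peaks. CAGATG was as dense in short genes, at 829 per Mb, as in long genes, at 832 per Mb, but 0.474% of its copies were in shared peaks in short genes (0.448 to 0.502) and 0.540% in long genes (0.520 to 0.562). TAATTA was sparser in the sequence, at 351 and 438 per Mb, and open at like rates, 0.149% and 0.151%. GGGCGGG differed in both, with 64.4 and 44.7 copies per Mb, of which 1.44% (1.28 to 1.62) and 0.959% (0.847 to 1.09) were in shared peaks. For TGACGTCA the copies were 5.50 and 5.41 per Mb, and 1.97% (1.40 to 2.77) of the 1621 copies in short genes were in shared peaks, against 0.904% (0.626 to 1.30) of the 3099 copies in long genes.

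Members were mostly narrow sites with a footprint. Their median width was 180 bp, against 184 bp for long-gene peaks and 220 bp for peaks near start sites, and their median GC content was 51.0%, against 49.0% and 62.5%. A footprint was called in 94.8% of members in replicate 1 and in 94.7% in replicate 2, near the 92.0% and 91.0% of all shared peaks. A footprint at an overlapping position in both libraries was held by 81.0% of members (79.8 to 82.1) and 74.5% of long-gene peaks (73.6 to 75.4). That share was 76.7% over all shared peaks and 81.4% in exonic peaks. The footprint share moves with the signal: in the strongest class it was 95.5% in short genes and 95.5% in long genes, and in the weakest 52.2% and 49.1%. Members with the CTCF consensus had a shared footprint in 95.4% of cases, and members without it in 78.7%. The 67 members with no footprint in either library had a median signal of 0.477 in replicate 1 and 0.599 in replicate 2 and a median width of 83 bp.

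The density of members was highest next to the start site and in sequence outside the introns of the transcript used for each gene. From 1 to 2 kb from the nearest start site members numbered 19.2 per Mb, against 23.9 per Mb in long genes, and from 2 to 5 kb 15.3 and 16.8 per Mb. Between 5 and 50 kb the densities in short genes lay between 13.6 and 15.5 per Mb, and those in long genes between 14.7 and 14.9 per Mb. Beyond 50 kb there were 16.8 per Mb in short genes (12.1 to 22.7) and 11.6 per Mb in long genes (11.1 to 12.2). The median distance of a member to a start site was 5950 bp, against 19245 bp for long-gene peaks. First introns held 27.6% of members and 26.2% of the eligible sequence, with 16.2 members per Mb, and later introns held 14.7 per Mb (14.2 to 15.2). The 353 members outside the introns of the transcript used reached 18.9 per Mb, with an interval above that of later introns. They include the members named here in Mxi1, Sin3a, 5730480H06Rik, Gad1, Nr2f2, Aqp4, Nkx2-2, Mb and Hnf4a. Several members of Slc2a3, Tub and Stra6 also lay outside these introns. The median signal was higher in short genes than in long genes in 5 of 6 distance classes in each replicate. From 1 to 2 kb it was 0.948 in replicate 1 and 1.22 in replicate 2, against 0.858 and 1.06 in long genes, and from 5 to 10 kb 0.892 and 1.11, against 0.803 and 0.993.

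Signal agreed closely between the animals. Across the 4527 members Pearson's r of log2 signal was 0.900 and Spearman's rho 0.877. Over all shared peaks these were higher, at 0.953 and 0.934, and in long-gene peaks lower, at 0.886 and 0.865. Such values describe peaks called in both of 2 libraries that share sequence and mappability. Replicate 2 was higher at 3776 members, or 83.4%, where the share over all shared peaks was 84.9%. The median log2 difference of members was 0.32 in the authors' units and 0.19 in steps. Over all shared peaks it was larger, at 0.37 and 0.24. A signal over 2-fold higher in replicate 2 was found at 101 members, or 2.23% (1.84 to 2.70), where the share over all shared peaks was 2.61%. A signal over 2-fold lower in replicate 2 was found at 1 member, or 0.0221%, where the share over all shared peaks was 0.0472%. In whole steps in place of the authors' units, the share of members over 2-fold apart in either direction was 0.994%, against 2.25%. Among the long-gene peaks, 1.45% (1.21 to 1.73) were over 2-fold higher in replicate 2, below the share of members. Each member was set against the strongest overlapping peak of replicate 2, which favours that library, and 40 members shared such a peak with another.

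**Figure D4:**
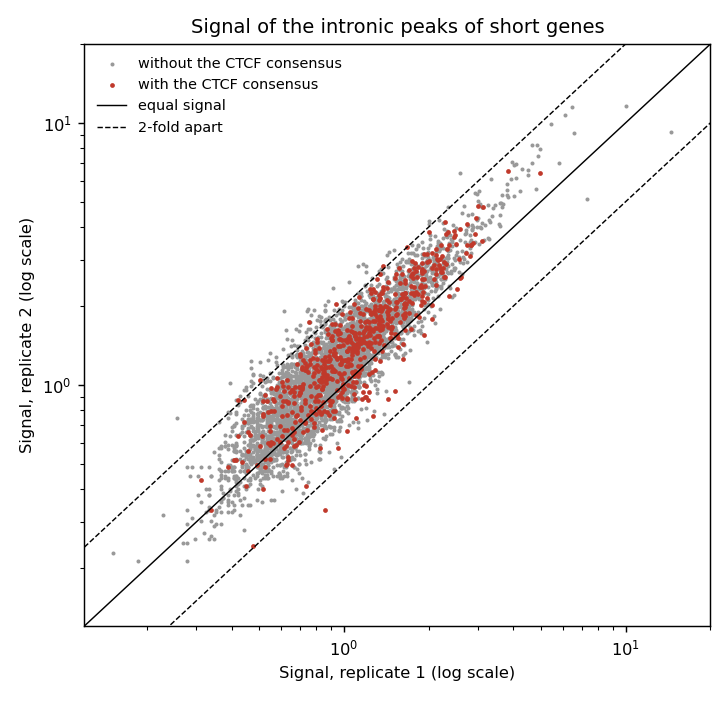
Signal of each of the 4527 members in replicate 1 (x axis) and replicate 2 (y axis), both on log scales in the authors' units, with members that hold the CTCF consensus in red. The cloud lies mostly above the line of equal signal, by a median log2 of 0.32, and 101 members lie above the upper dashed line at 2-fold.

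The widest gaps toward replicate 2 were at narrow peaks of 132, 57 and 65 bp. A member in Tmod1, which encodes an actin-capping tropomodulin, reached 0.616 in replicate 1 but 1.92 in replicate 2 (log2 difference 1.64). A member in C2cd6 had 0.256 and 0.750 (1.55), and one in Myh14, a nonmuscle myosin heavy chain gene, 0.470 and 1.24 (1.39). None of these had a footprint shared by both libraries. The widest gaps toward replicate 1 were at the genes 5730480H06Rik, with 0.858 in replicate 1 and 0.334 in replicate 2 (-1.36), 2010106E10Rik on the X chromosome, with 0.477 and 0.243 (-0.98), and Zc2hc1a, with 0.927 and 0.478 (-0.96). The members of 5730480H06Rik and 2010106E10Rik held the CTCF consensus, with no footprint shared by both libraries.

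Members were spread thinly over many genes. Of the 16419 short protein-coding genes with any eligible sequence, 3144 hosted at least 1 member, or 19.1%. Of these hosts, 2167 had 1 member, 656 had 2 and 321 had 3 or more. Most members, 4452, lay in a single gene, while 72 lay in 2 overlapping genes and 3 in 3. Hosting followed the room available: 3.14% of genes with up to 5 kb of eligible sequence hosted a member, and 60.8% of those with over 60 kb. Genes whose own promoter held a peak in both libraries hosted members more often, 22.9% against 14.4% of the others, and had 16.0 against 14.2 members per Mb (15.4 to 16.6 and 13.5 to 14.9). Members of 1 gene resembled each other somewhat in signal, with an intraclass correlation of 0.285 for log2 mean signal over 2400 members in 962 hosts. Neighbouring members of a gene lay a median of 8.97 kb apart.

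The gene with the most members was Il3ra, the interleukin-3 receptor alpha chain (chr14:14346275-14356011, + strand), with 8 in only 4.67 kb of eligible sequence. Their signals ran from 0.284 to 1.18 in replicate 1 and from 0.265 to 1.41 in replicate 2, and their medians were 0.391 and 0.440, below those of all members. A pair of them overlapped, and 1 of the 8 held a footprint in both libraries. The strongest, above the median member in both libraries, lay 2.12 kb from the gene start. Acot7 (chr4:152178134-152271855, + strand) hosted 7, all with shared footprints and spread over 53.6 kb. Its signals ran from 0.996 to 2.56 in replicate 1 and from 1.27 to 3.02 in replicate 2, and the strongest was the CTCF member printed above, 36.1 kb from the gene start.

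A further 9 genes hosted 6 members each. Sulf2, an extracellular heparan sulfatase, had members from 0.547 to 1.89 in replicate 1 and from 0.864 to 3.15 in replicate 2. Slc2a3, the neuronal glucose transporter GLUT3, had members from 0.969 to 1.72 and from 0.993 to 2.69, all 6 with shared footprints. Tub, the gene of the tubby protein that brings receptors to cilia, had 3 CTCF members among its 6. Ago2, the slicer of the RNA silencing complex, had none with the CTCF consensus, and 3 with shared footprints. Anxa6, another host of 6, had 2 CTCF members, and Ccdc33, Pla2g5 and Snx9 had 1 each. Ccdc33 overlaps Stra6, and 4 of its members are also counted in that gene.

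**Figure D5:**
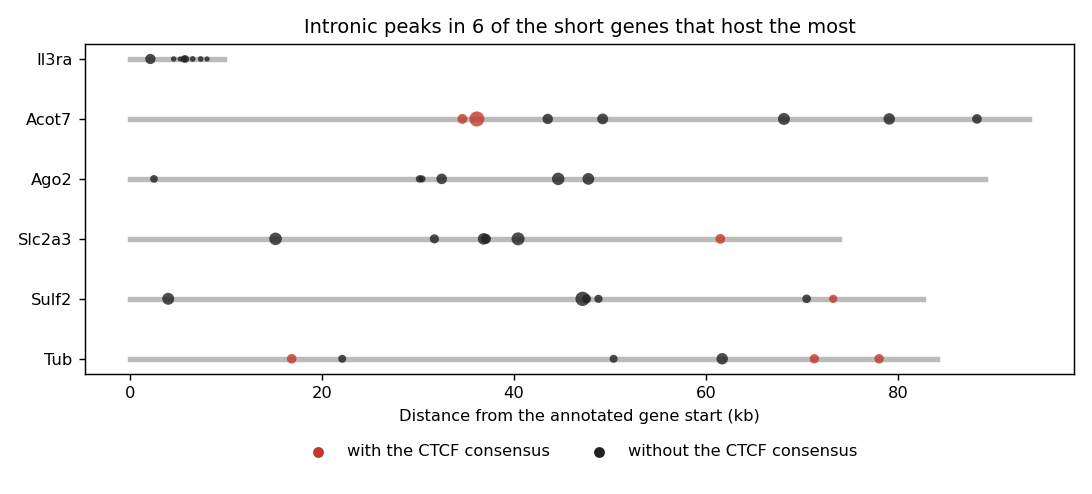
Positions of the members (dots, area proportional to mean signal) along 6 of the short genes that host the most, from the annotated gene start (x axis, kb; grey bars span the gene). The 8 members of Il3ra crowd into its 9.74 kb, while the 7 of Acot7 spread over 53.6 kb with a CTCF member (red) as the strongest.

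The strongest members were a mixed group. The highest mean signal was at Gm10722, a predicted gene, with 14.5 in replicate 1 and 9.22 in replicate 2, but the sequence was fully repeat-masked and had 148 near-identical copies elsewhere in the genome. Its value is therefore uncertain, as is that of the next, in the interleukin-31 receptor gene Il31ra, with 10.0 and 11.6 and 6 further copies. The unique members began with the one in Mxi1 printed above (6.46 and 11.5). A member in Sptbn4, the gene of beta-IV spectrin of the axon initial segment, had 6.12 and 10.7, lay in intron 33 of 35 (chr7:27361441-27361660), and held EGR, SP/KLF and NRF1 matches. Sin3a, a corepressor scaffold, had 6.54 and 9.12 at a peak 0.193 kb from a RefSeq start. Nr1d1, the clock repressor REV-ERB alpha, had 5.45 and 9.91 in its first intron.

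Creb3l1 had 4.84 in replicate 1 and 8.21 in replicate 2, and lay 16.0 kb from the nearest GENCODE start site and 15.7 kb from the nearest RefSeq one. The predicted gene Gm20431 had 4.97 and 7.98, the cytokine receptor gene Crlf2 had 4.66 and 8.22, and the formin gene Diaph1 had 5.83 and 7.03 with an RFX match. Among the strongest members that carried each motif described, the CTCF member of Nuak1 had 4.98 and 6.43, the NFI member of Hlf 4.09 and 6.96, the AP-1 member of Vangl1, a planar cell polarity gene, 4.22 and 5.47, the MEF2 member of Cdhr3 2.84 and 4.49, and the POU member of Fstl1, a secreted follistatin-like gene, 2.28 and 2.52. All of the motif-bearing members just named except that of Fstl1 had a footprint at an overlapping position in both libraries.

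Genes that mark each major cortical cell type included hosts of members. In this whole tissue, fewer cells with an open site and less opening per cell cannot be told apart. Of the eligible neuronal genes, 6 of 10 were hosts, where 19.1% of all eligible genes were, but their median eligible sequence was 18.3 kb, against 10.7 kb over all. In each list, signals are quoted mainly for up to 2 genes with its strongest members, which need not stand for the list. Dlg4, the postsynaptic scaffold PSD-95, had a member with 4.88 in replicate 1 and 7.47 in replicate 2, stronger than 99.7% of members. Stmn2 had 1.31 and 1.65 at its CTCF member. The 9 neuronal members had medians of 0.747 in replicate 1 and 1.18 in replicate 2, against 0.899 and 1.12 over all members. The neurofilament genes Nefl and Nefm overlap in the annotation and share 1 member.

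Among excitatory neuron genes, 3 of 11 were hosts. Camk2a, a kinase of the postsynaptic density, had 1.91 in replicate 1 and 2.26 in replicate 2 at a CTCF member. Bcl11b, a factor of deep-layer projection neurons, had 4 members, the strongest with 1.80 and 2.32. The remaining excitatory host was weak, with 0.277 and 0.485. Among interneuron genes, 4 of 13 were hosts, led by the CTCF member of Gad1, with 2.62 and 2.58, and by Nr2f2, with 1.62 and 2.32. The weakest interneuron host had 0.401 and 0.356. Among astrocyte genes, 4 of 8 were hosts, with 1.72 and 1.93 in Slc1a3 and 1.12 and 1.39 in the water channel gene Aqp4. Of oligodendrocyte lineage genes, 2 of 9 were hosts, and all 3 members of Cspg4, the NG2 proteoglycan of progenitors, were above the median member, the strongest with 2.03 and 2.99. Nkx2-2 had 1.36 and 1.66.

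Markers of less abundant cell types gave counts of the same kind, beside the 19.1% of all eligible genes that were hosts. Of 10 eligible microglia genes, 4 were hosts, with 1.83 in replicate 1 and 2.31 in replicate 2 in Spi1, the gene of the myeloid factor PU.1. Of 8 endothelial and mural genes, 5 were hosts, with a median eligible sequence of 34.4 kb. Pdgfrb, the pericyte receptor, had 2.46 and 3.65 at a CTCF member, and Pecam1, an endothelial adhesion molecule, 1.59 and 2.33. Of activity-regulated genes, 2 of 9 were hosts, Bdnf with 1.79 and 3.14 and Fosl2 with 1.19 and 1.36. Hprt, on the X chromosome, was the only host among 8 housekeeping genes, with 0.719 and 0.387.

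Markers foreign to the cortex gave 2 hosts of 14 for other brain regions, 3 of 11 for muscle, 1 of 12 for liver and 0 of 7 for red blood cells. The share for muscle, 27.3%, equalled that for excitatory neurons and was above the 22.2% for the oligodendrocyte lineage. The liver regulator gene Hnf4a had the strongest of these, with 2.86 in replicate 1 and 4.07 in replicate 2. Th had 1.25 and 2.24 and Mb 0.892 and 1.06, both at CTCF members, while Pax2 had 0.436 and 0.682 and Myh4 0.526 and 0.819. A promoter peak in both libraries was present at 2109 of all 3144 hosts and at 15 of the 37 hosts in the 13 lists. By list, these were 6 of 6 neuronal, 2 of 3 excitatory, 1 of 4 interneuron, 1 of 4 astrocyte, 0 of 2 oligodendrocyte lineage, 1 of 4 microglia and 1 of 5 endothelial and mural hosts. They were also 2 of 2 activity-regulated hosts, 1 of 1 housekeeping host, and 0 of 6 hosts among the foreign markers. Differences between lists were not tested. Gad1, Slc1a3, Cspg4, Spi1, Pdgfrb and Pecam1 thus hosted a member without a promoter peak in both libraries. The lists are small, and these counts are descriptions.

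On the X chromosome members were fewer and weaker. There were 78 of them, 6.79 per Mb, where the 19 autosomes ranged from 12.6 to 18.8 per Mb. Their median signal was 0.560 in replicate 1 and 0.652 in replicate 2, against 0.906 and 1.12 on the autosomes. The 137 long-gene peaks of the X chromosome had medians of 0.533 and 0.599. The CTCF share on the X chromosome was 6.41% of the 78 short-gene peaks and 13.1% of the 137 long-gene peaks. That order was opposite to the order over all chromosomes, but the peaks are few and no interval was computed for these shares. Both animals were female.

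Just inside and just outside the limits of the choice, the median signals in replicate 1 were close. Genes up to 5 kb below the length limit held 171 members in 88 genes with a median signal of 0.830 in replicate 1 and 1.00 in replicate 2 and a CTCF share of 12.9%. Genes up to 5 kb above it held 240 peaks in 113 genes with medians of 0.823 and 1.02 and a CTCF share of 9.58%. Members from 1000 to 1100 bp from a start site had medians of 0.892 and 1.05, and the 104 peaks left out just below, from 900 to 1000 bp, 0.892 and 1.22.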

How the data were processed

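The analysis used DNase-seq peak, footprint and cut-rate lists of 2 libraries on mm10. Per the deposited file descriptions, each was made from that library's own alignments without pooling; the caller and its settings are not given in the sources used here. For each peak the deposited signal is 1 value, scaled by library by the authors. The deposited p-value column of the footprint lists holds a constant, so only positions were used, and the deposited FDR lists hold p-values under 0.05. The smaller of 2 peak lists per library was used.

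Peaks of replicate 1 with at least 1 bp in common with a replicate 2 peak were called shared. Midpoints were placed on GENCODE M21 genes; densities are per Mb that met the same conditions, without assembly gaps. Promoter peaks lay within 500 bp of a start in both libraries. Shares have 95% Wilson intervals, densities exact Poisson intervals. The 25 motifs were matched in the central 200 bp, and 13 gene lists (170 genes) were used. Members and lists were chosen with earlier results of these data known. Named genes are the hosts with most members, the 10 strongest autosomal members, the 3 largest log2 ratios each way, the top 2 genes per list and the strongest member per motif described; Nefl and Nefm were named for their overlap, after their values were seen. Copies were found with BLAST 2.17.0 (90% identity over 80% of the length). Python 3.11.15, pandas 2.3.3, SciPy 1.17.1 and bedtools 2.31.1 were used, and the classification was tested on simulated data. Some genes that the rule names are not reported here. Reads were not assigned to parental alleles.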

Additional observations from a re-analysis of the deposited data

How the results depend on the processing

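The ratio of CTCF peak density in short genes to that in long genes lay between 1.67 and 1.90 over 14 alternatives. The ratio without CTCF lay between 0.932 and 1.34 and was above 1 in 3 of 14, and the ratio for all peaks lay between 0.984 and 1.41 and was above 1 in 11 of 12. With the stronger 50% of peaks, there were 2416 members in 1856 genes at 8.20 per Mb, with ratios of short to long genes of 1.41 for all peaks, 1.90 with and 1.34 without CTCF; first introns held 28.2%, open-promoter hosts 61.3%, CTCF 17.4%, shared footprints 92.4%, over 2-fold 1.49%, and the median log2 was 0.36. With the larger peak lists there were 8469 members in 4734 genes at 28.7 per Mb, ratios of 0.984, 1.76 and 0.941, and shares of 30.0%, 77.3%, 9.49%, 61.6% and 2.83% in the same order, with a median log2 of 0.29; the ratio for all peaks thus fell below 1.

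With genes under 50 kb the values were 2287 members in 1828 genes, ratios of 1.01, 1.88 and 0.932, and 30.3% in first introns, 62.0% in open-promoter hosts, 15.4% with CTCF and 83.2% with shared footprints. With genes under 200 kb they were 7364 members, ratios of 1.15, 1.88 and 1.09, and 25.6%, 71.9%, 12.2% and 79.4%, with 1.85% over 2-fold. A reciprocal overlap of 50% gave ratios of 1.07, 1.68 and 1.00, with 26.7% in first introns, 14.8% with CTCF and 84.8% with shared footprints. A distance over 500 bp gave ratios of 1.10, 1.67 and 1.05, with 32.1%, 70.4%, 12.4% and 78.4% for first introns, open-promoter hosts, CTCF and footprints. A distance over 2 kb gave ratios of 1.04, 1.75 and 0.975, with 24.5% and 66.8% for the first 2 of these. Exons and starts of protein-coding genes only gave ratios of 1.05 for all peaks and 1.70 with CTCF.

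Chosen after seeing the data were 2 removals. Without peaks within 1 kb of a RefSeq start the ratios were 1.03, 1.69 and 0.972, with 26.4% in first introns; without repeat-masked peaks they were 1.04, 1.72 and 0.981, at 15 members per Mb with 27.6% in first introns. A promoter window of 1 kb gave 70.5% in open-promoter hosts, signal in whole steps a median log2 of 0.19 and 0.994% over 2-fold, and reciprocal footprint overlap 66.4%. In each library alone, the density ran from 18.4 to 22.4 per Mb, the CTCF share from 10.9% to 12.4%, first introns from 28.3% to 29.2%, and the ratios were 1.03 for all peaks, 1.75 to 1.76 with CTCF and 0.975 to 0.983 without. The cause of these moves was not tested. No paired analysis was possible because the 2 libraries formed 1 group, so a replicate block between groups could not be fitted; the ratios of each library alone set both kinds of region against each other within that library. The exact sign-flip test over 2 libraries could not go below p = 0.5, and no group was large enough for a check of outlying samples.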
